A study of Drosophila melanogaster with 6 samples.

Results

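The cuticle protein genes of Drosophila melanogaster were followed in leg imaginal discs, the larval sacs that form the adult legs, at 0 h APF (after puparium formation). Members were all genes whose name in the deposited expression table begins with Cpr, Lcp, Ccp84, Twdl or Osi followed by a letter or digit. This rule found 144 of the 17411 genes listed, namely 70 Cpr, 17 Lcp, 7 Ccp84, 26 Twdl and 24 Osi genes. Cpr alone, the name of a cytochrome P450 reductase gene, was not taken.

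All animals carried sr-gal4, a Gal4 insertion in stripe (sr), driving a UAS GFP reporter that the methods give as UAS-Lifeactin.GFP. The methods write the dissected pupae with sr-gal4 over the TM6b balancer, which carries the dominant body shape marker Tubby (tb), an allele of a Tweedle gene that the table lists as Tb and the name rule did not take. GFP+ cells (tendon precursors) and input cells were collected by FACS, with 3 libraries in each group. Input cells, called control in the labels, were whole leg disc cells of the same genotype sorted independently of fluorescence, so they also contain GFP+ cells. Discs of many pupae were pooled for a sort, GFP marks the cells in which the insertion is active, and both groups went through the same dissociation. The deposited tables give 1 value per group rather than per library, so the spread between libraries could not be seen and no test between libraries was possible.

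The insect cuticle is secreted by the epidermis as chitin fibres embedded in structural proteins. Most of these proteins belong to the CPR family, which bind chitin through the Rebers and Riddiford consensus. Lcp genes (larval cuticle proteins) and Ccp84 genes carry the same domain and lie in tandem clusters. Tweedle proteins (Twdl) are a separate insect family of structural cuticle proteins, and Osiris proteins (Osi) are insect-specific proteins with a signal peptide and a predicted transmembrane region, expressed largely in cells that make cuticle. Cuticle genes are switched on in waves as the titre of the moulting hormone ecdysone rises and falls, and at puparium formation the discs have yet to lay down the pupal cuticle.

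The level of each gene is given in FPKM, reads per kilobase of transcript scaled to the reads mapped, with the lower and upper confidence bound listed for its group. A gene was called on at an FPKM of 1 or more in GFP+ or input cells. Of the 144 members, 31 were on (21.5%), against 52.9% of all genes listed and 59.8% of protein-coding genes. A further 90 members were listed above 0 and below 1 in both groups, and 23 were listed at 0 in both. The families differed in this share. Ccp84 had 4 of 7 members on (57.1%), Cpr 18 of 70 (25.7%), Osi 5 of 24 (20.8%), Lcp 2 of 17 (11.8%) and Twdl 2 of 26 (7.69%). No Lcp gene reached 1 in input cells.

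**Figure D1:**
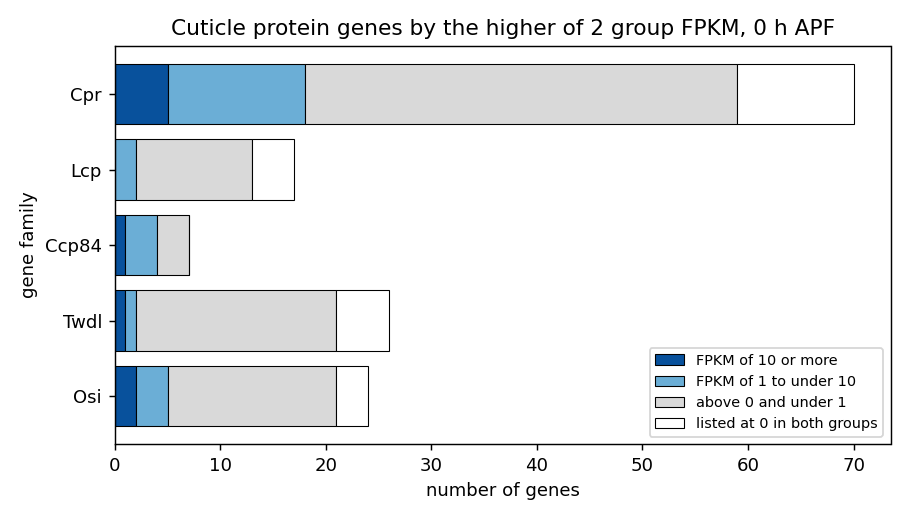
Number of cuticle protein genes in each family (horizontal axis) by the higher of the FPKM in GFP+ and input cells. Dark and light blue mark the 31 genes at 1 or more, of which 9 reached 10, grey marks 90 genes between 0 and 1, and white marks 23 genes listed at 0 in both groups.

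GFP+ cells had 25 members on and input cells 26, with 20 on in both. For comparison, the 17411 genes listed gave 8776 on for the GFP+ group, 8607 for input and 8176 for both. Among them, 600 were on for the GFP+ group alone and 431 for input alone. Whether the members differed from all genes in these counts was not tested. The 5 members on in GFP+ cells alone were Cpr47Eg, Cpr49Ah, Lcp65Ag2, Lcp65Ag3 and Osi2. The 6 members on in input cells alone were Cpr11B, Cpr35B, Cpr47Ee, Cpr60D, Cpr64Aa and Cpr64Ad. Apart from Cpr47Ee, these 11 genes reached at most 2.46, and of the 11 only Cpr47Ee had bounds that did not overlap between the groups. At the edge of the level, the lowest members on were Cpr35B (1.03 in input cells), Cpr60D (1.05 in input cells), Lcp65Ag3 (1.17 in GFP+ cells) and Cpr47Eg (1.26 in GFP+ cells). The highest members below it were Cpr56F (0.977), Cpr5C (0.914), Osi15 (0.876) and Ccp84Af (0.836), all in GFP+ cells.

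The deposited tables also give each gene's mean normalised read count over all 6 libraries, which shows how much data stands behind a level. These means summed to 31652166 over all genes, and totals per library are unknown. It was 100 or more for 14 members, 10 to under 100 for 25, 1 to under 10 for 53, above 0 and under 1 for 28, and 0 for 24. A count of 0 in every library allows up to 0.0158 CPM, counts scaled to the depth (3 counts over all 6 libraries, counting error only). The levels of the weaker members therefore rest on few reads, and their bounds commonly reach 0. Of the 31 members on, 14 had lower bounds above 0 in both groups and 10 had a lower bound of 0 in both.

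The summed FPKM of all members was close between the groups (GFP+ 474, input 461), and a few genes supplied most of it. The FPKM of all genes summed to 926347 in GFP+ and 689351 in input cells. As a share of its group's total, the members' sum was therefore lower in GFP+ cells. Cpr12A, a gene of the CPR family on the X chromosome (X:13543643-13544907 of dm6, plus strand), was the highest member in both groups. Its FPKM was 244 in GFP+ cells (bounds 197 to 291) and 233 in input cells (bounds 188 to 277), a ratio of 1.05. It supplied 51.5% of the members' GFP+ sum and 50.4% of the input sum, and ranked 430th and 393rd among all genes. With TwdlE, Cpr49Ac and Cpr64Ac it made up 71.0% of the sum in GFP+ and 69.3% of that in input cells. The bounds of these 4 genes overlapped between the groups.

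TwdlE was the second highest member, at 36.1 in GFP+ cells (bounds 27.1 to 45.0) and 32.6 in input cells (bounds 24.5 to 40.6), a ratio of 1.11. Its level is uncertain, since 71.9% of its exonic bases are shared with lectin-28C on the opposite strand, and the counting is not stated to use strand. The mean read count of TwdlE corresponds to a level of 7.21 per kilobase on the same scale, 4.76 times below its mean FPKM of 34.3. lectin-28C itself was listed at 0.622 in GFP+ and 0.840 in input cells. Among the other members on, the mean FPKM was at most 1.86 times the level given by the counts, apart from Cpr57A and Cpr67Fb, which had no counts.

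Cpr49Ac stood at 28.8 in GFP+ cells (bounds 21.7 to 35.8) and 28.4 in input cells (bounds 21.5 to 35.2). Cpr64Ac stood at 27.7 (bounds 0 to 55.9) and 26.1 (bounds 5.17 to 46.9), so its level was among the least certain of the high members. Their ratios of 1.01 and 1.06 were small beside the bounds.

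**Figure D2:**
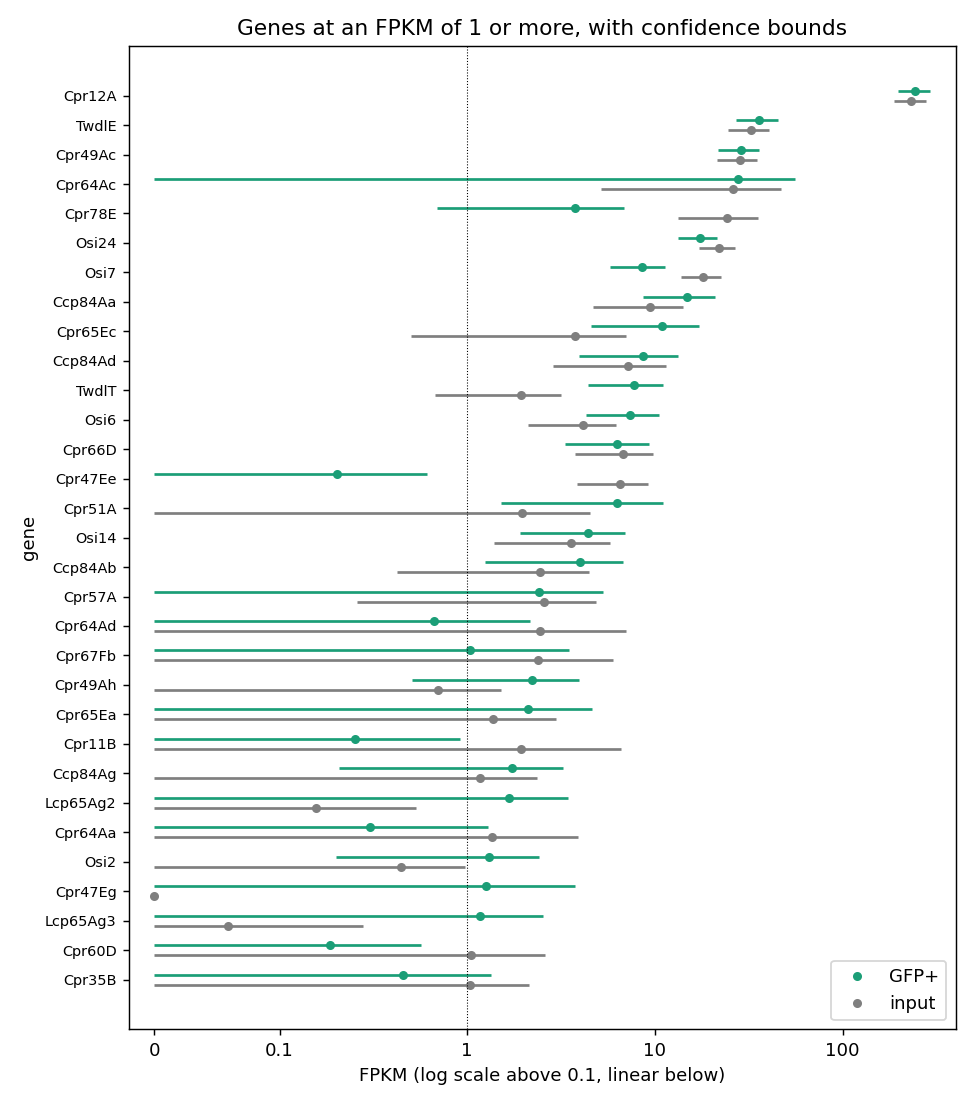
FPKM (horizontal axis, log scale above 0.1 and linear below) of the 31 genes at 1 or more in GFP+ cells (green) or input cells (grey), with lines from the lower to the upper confidence bound of the group. Cpr12A stands alone at 244 and 233, and the lines are separate for Cpr78E, Osi7, TwdlT and Cpr47Ee.

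To ask whether cuticle genes differed between tendon precursors and the disc as a whole, a member was called higher or lower where its bounds in the groups did not overlap. Among all genes on with usable bounds, 8.14% were higher in GFP+ cells and 12.9% were lower by this rule. Of the 31 members on, 1 was higher (TwdlT), 3 were lower (Cpr47Ee, Cpr78E and Osi7) and 27 had overlapping bounds. Counts of 1 and 3 of 31 are too small to set apart from the shares of all genes. Members on were also weaker, with a median of 3.75 in GFP+ cells against 17.1 for all genes on. Lower bounds were 0 in both groups for 10 of the 31. How far weak signal limited the calls was not tested.

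TwdlT, a Tweedle gene on chromosome 3R (3R:27049220-27051004), was at 7.72 in GFP+ cells (bounds 4.41 to 11.04) and 1.92 in input cells (bounds 0.672 to 3.18), a ratio of 4.02. Even the lower bound in GFP+ cells was 1.39 times the upper bound in input cells. Input cells contain GFP+ cells too, and how much of the input level they supply was not tested.

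Cpr47Ee, a CPR gene on chromosome 2R (2R:11265126-11266856), was at 6.52 in input cells (bounds 3.83 to 9.22) and 0.202 in GFP+ cells (bounds 0 to 0.614). Its level was 32.3 times lower in GFP+ cells, and the bounds nearest to each other differed by 6.23 times. Cpr78E, a CPR gene on chromosome 3L (3L:21666452-21666980), was at 24.4 in input cells (bounds 13.3 to 35.5) and 3.75 in GFP+ cells (bounds 0.693 to 6.82), 6.49 times lower. In bulk samples fewer expressing cells and less RNA per cell cannot be told apart.

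Osi7, an Osiris gene with no intron (3R:6248994-6251683), was at 18.1 in input cells (bounds 13.8 to 22.5) and 8.51 in GFP+ cells (bounds 5.75 to 11.3), 2.13 times lower. The nearest bounds differed by only 1.22 times. Osi7 had a mean normalised count of 893 but an empty p-value cell in the deposited comparison table, the mark DESeq2 sets where the count of a library is extreme. Only 194 of the 13673 genes with counts (1.42%) had such a cell, 5 of them members (Osi7, TwdlG, TwdlN, Osi19 and Cpr50Ca). Whether 1 library set the difference in Osi7 was not tested.

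**Figure D3:**
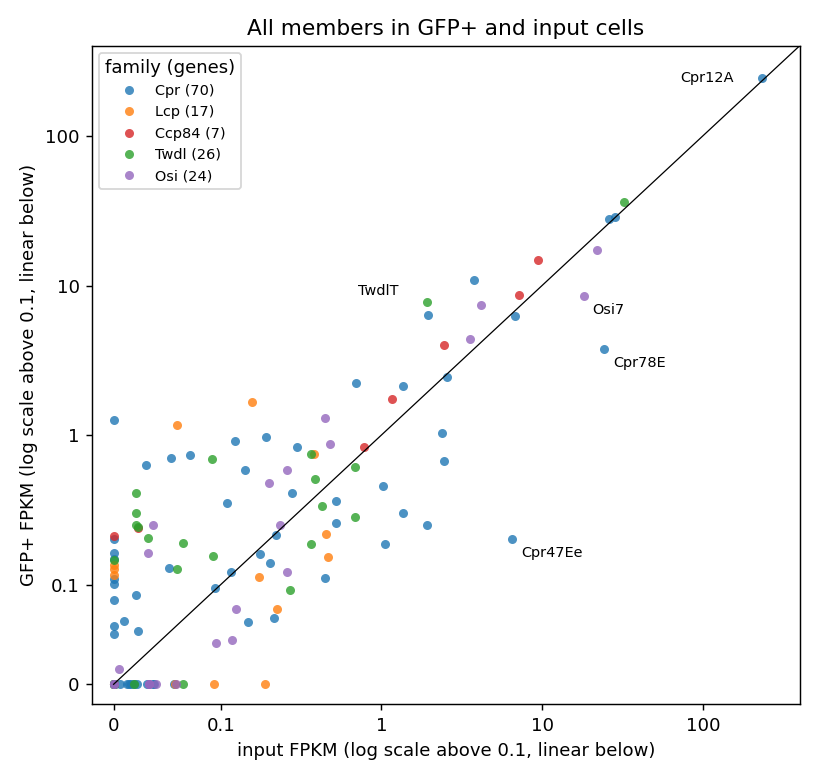
FPKM of all 144 genes in input cells (horizontal axis) and GFP+ cells (vertical axis), both on a log scale above 0.1 and linear below, coloured by family, with the line of equal levels. TwdlT lies above the line, Osi7, Cpr78E and Cpr47Ee lie below it, and Cpr12A lies on it at the upper right.

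Among the other Cpr genes, Cpr65Ec stood at 10.9 in GFP+ cells (bounds 4.55 to 17.3) and 3.76 in input cells (bounds 0.499 to 7.02). Cpr51A was at 6.31 and 1.959, and Cpr49Ah at 2.23 and 0.697. These 3 genes had ratios of 2.90, 3.22 and 3.19 in favour of GFP+ cells, but their bounds overlapped. Cpr66D was almost level, at 6.28 in GFP+ and 6.77 in input cells, and Cpr65Ea stood at 2.12 and 1.37.

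Cpr64Ad (0.666 in GFP+ and 2.46 in input cells), Cpr11B (0.252 and 1.93), Cpr64Aa (0.303 and 1.36), Cpr60D (0.186 and 1.05) and Cpr35B (0.455 and 1.03) had values below those of input cells. Their lower bounds were 0 in both groups, so none of these 5 differences could be resolved. Cpr47Eg, at 1.26 in GFP+ cells, was listed at 0 in input cells, and no fold is given for it. Cpr57A (2.43 and 2.57) lies wholly within exons of Obp57d on the same strand, and 85.1% of the exonic bases of Cpr67Fb (1.03 and 2.37) are shared with an antisense RNA, CR45171. Both had a mean normalised count of 0 in spite of these FPKM, so their levels are uncertain.

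The Lcp genes were nearly silent. Lcp65Ag2 was at 1.68 in GFP+ cells (bounds 0 to 3.43) and 0.156 in input cells, and Lcp65Ag3 at 1.17 (bounds 0 to 2.53) and 0.0589. Lcp65Ag1, the neighbouring copy, stayed below 1 at 0.752 and 0.382. The Lcp65Ag genes are near-identical copies that can share reads, and Lcp65Ag3 also lies within exons of an antisense RNA, CR46005, so the split among them is uncertain. Lcp1, Lcp2, Lcp3 and Lcp4, known as major proteins of the cuticle of the third larval instar, reached at most 0.467 (Lcp1, input cells). The pseudogenes Lcp1Psi and Lcp65APsi were listed at 0 in both groups.

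The Ccp84 genes had the largest share on. Ccp84Aa was at 14.8 in GFP+ cells (bounds 8.66 to 20.9) and 9.40 in input cells (bounds 4.68 to 14.1). Ccp84Ad was at 8.66 (bounds 3.96 to 13.4) and 7.18 (bounds 2.88 to 11.5). Ccp84Ab was at 3.99 and 2.44, and Ccp84Ag at 1.73 and 1.17. All 4 had values somewhat above input, with ratios from 1.21 to 1.63, and all 4 had overlapping bounds.

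Of the Twdl genes only TwdlE and TwdlT were on, and the next was TwdlF at 0.746 in GFP+ cells. TwdlD was at 0.694 in GFP+ and 0.0918 in input cells.

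The 5 Osi genes on were Osi24, Osi7, Osi6, Osi14 and Osi2. Osi24 was the highest, at 17.3 in GFP+ cells (bounds 13.3 to 21.3) and 22.0 in input cells (bounds 17.3 to 26.7). Osi6 was at 7.41 and 4.14, Osi14 at 4.41 and 3.57, and Osi2 at 1.31 and 0.443. Apart from Osi7, the Osi genes on had overlapping bounds. Osi6 and Osi7 lie next to each other, and the value of Osi6 was above that of input cells where the value of Osi7 was below it.

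By position, 112 members lay in 18 groups of 2 or more with gaps of at most 20 kb, and 32 lay alone. Of the clustered members 21 were on (18.8%), and of the lone ones 10 (31.2%). The clusters differed, and being on was not shared by a whole cluster. The Ccp84 cluster (3R:6686728-6704903) had 4 of 7 members on and the cluster from Cpr64Aa to Cpr64Ad 3 of 4. In the Osi cluster (3R:6198811-6341424) 5 of 20 were on, with Osi8, between Osi7 and Osi9, and Osi16 listed at 0 in both groups.

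The cluster of Lcp65A and Cpr65A genes (3L:6130386-6161589) had 2 of 18 members on. The 12 Twdl genes from TwdlM to TwdlD (3R:26619118-26641054) and the 5 members from Lcp1 to Lcp4 on chromosome 2R had none. In the cluster from Cpr49Aa to Cpr49Ah, Cpr49Ac at 28.8 stood between neighbours listed at 0 (Cpr49Ab) and 0.110 (Cpr49Ad) in GFP+ cells. In the cluster from Cpr47Ea to Cpr47Eg, Cpr47Ee alone exceeded 2.

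**Figure D4:**
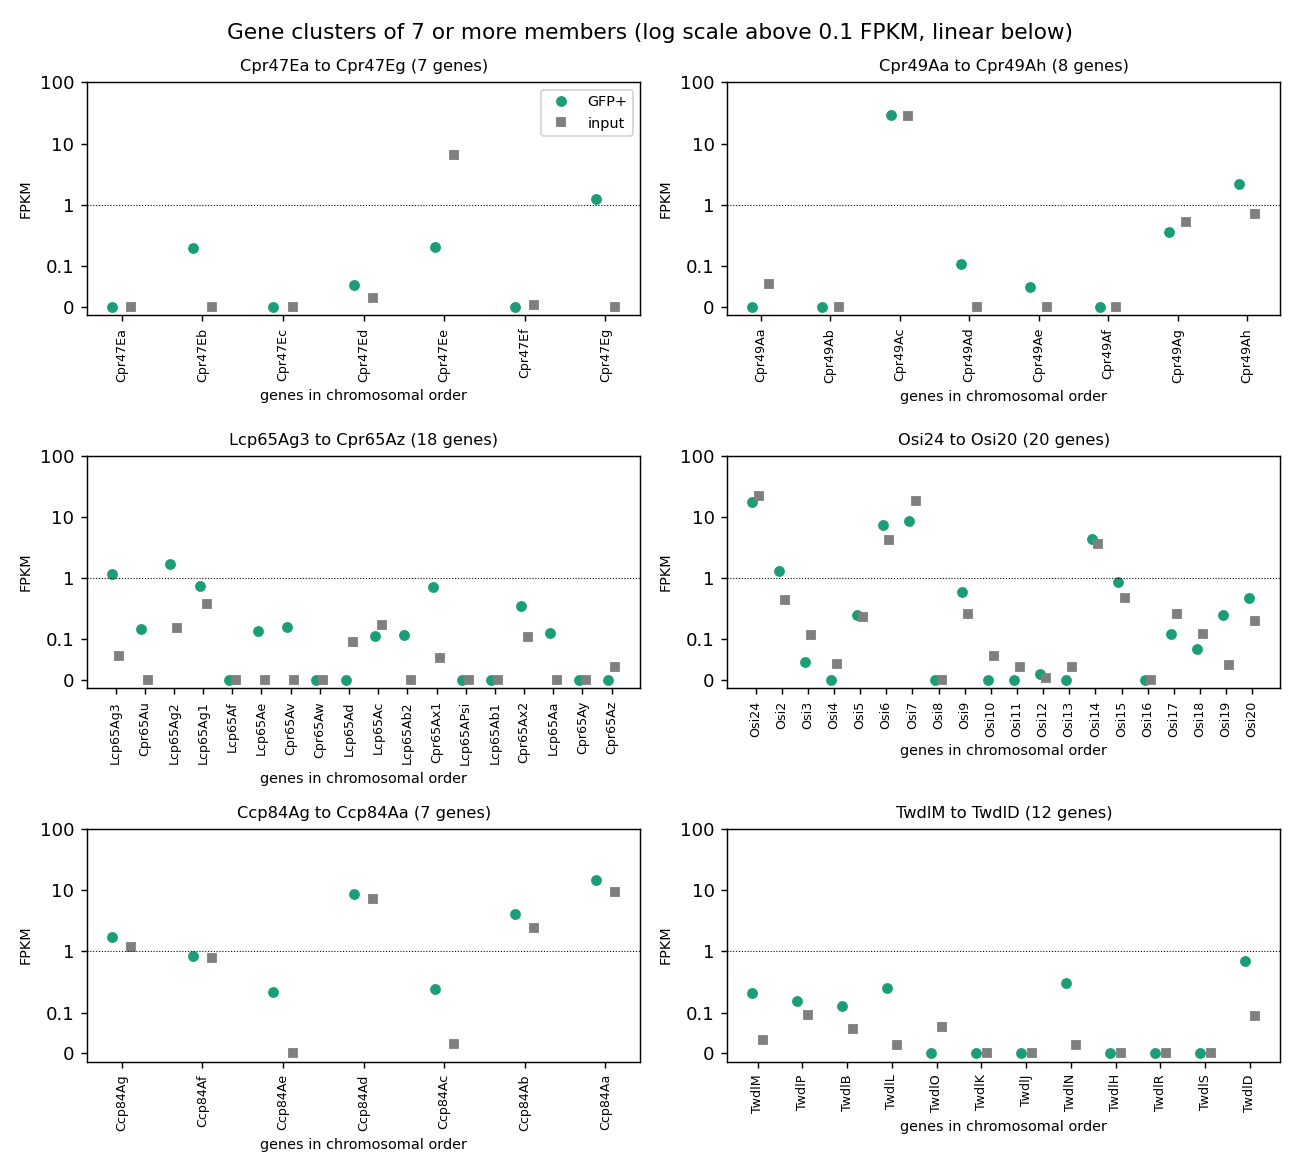
FPKM (vertical axes, log scale above 0.1 and linear below) of the genes in the 6 clusters of 7 or more members, in chromosomal order, in GFP+ cells (green circles) and input cells (grey squares); the dotted line marks an FPKM of 1. Genes above the line stand next to genes at or near 0 in 5 of the clusters, and none of the 12 genes from TwdlM to TwdlD reaches it.

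The members share a compact gene structure. Of the 142 found in the annotation, 62.0% had 2 exons or fewer, against 28.9% of other protein-coding genes, and their median transcript was 900.5 bases long, against 1621. Length did not separate members on from the rest, with medians of 890 and 908 bases. Over all genes on, however, the ratio of GFP+ to input FPKM moved with transcript length. The median log2 ratio was 0.54 for transcripts shorter than 750 bases, 0.29 from 750 to 1500, -0.0036 from 1500 to 3000 and -0.51 above that.

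The median log2 ratio of the 30 members on with a ratio was 0.12, and 0.03 over all genes on. With the length trend removed the members' median was -0.14, so the slight lean to GFP+ cells did not hold for genes of their length. The differences of the 4 genes with separate bounds kept their direction: TwdlT had a log2 ratio of 2.01 before and 1.91 after, Cpr47Ee -5.01 and -5.19, Cpr78E -2.70 and -3.16, and Osi7 -1.09 and -0.88.

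**Figure D5:**
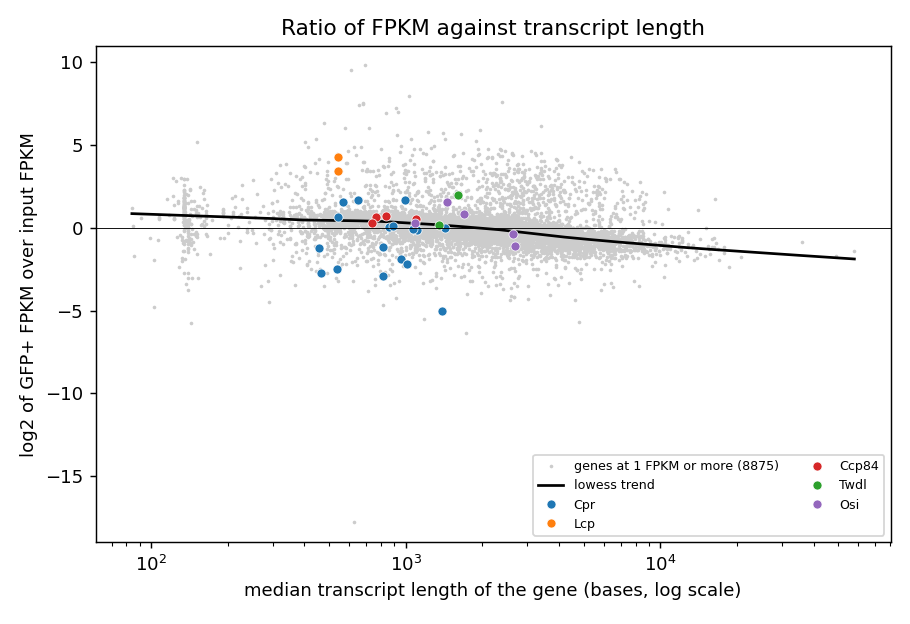
Log2 ratio of GFP+ over input FPKM (vertical axis) against the median transcript length of the gene in bases (horizontal axis, log scale) for 8875 genes at an FPKM of 1 or more (grey), with the lowess trend (black) and the cuticle protein genes coloured by family. The trend falls from above 0 for short transcripts to below 0 for long ones, and the cuticle protein genes lie on the short side.

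Genes around the structural proteins were read from lists. Over all genes 52.9% were on, and of those on with usable bounds 8.14% were higher and 12.9% lower in GFP+ cells. Of 11 other cuticle protein genes, 5 were on, of which CG16885 was lower in GFP+ cells (9.13 against 19.5), none was higher and 4 had overlapping bounds. Edg78E and Edg91, induced in discs by an ecdysone pulse, were at 4.16 and 3.96 in GFP+ and 0.912 and 3.52 in input cells. Acp65Aa, an adult cuticle protein gene, was listed at 0 in both groups.

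The chitin machinery, in contrast to most of its protein partners, was mostly on. Of 12 genes of chitin synthesis and assembly 11 were on, 8 of them at 10 or more, and 5 were higher in GFP+ cells, none lower. The shares over all genes on were 8.14% higher and 12.9% lower. The highest in GFP+ cells were the chitin deacetylases verm and serp and the chitin-binding proteins obst-A and Gasp. verm was at 848 in GFP+ cells (bounds 662 to 1034) and 544 in input cells (bounds 434 to 655). Its nearest bounds differed by only 1.01 times. Gasp was at 253 in GFP+ and 54.8 in input cells, and obst-A at 263 and 119. kkv, the chitin synthase of the epidermis, was at 51.7 and 63.1 with overlapping bounds.

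Of 23 genes for hardening and pigment 16 were on, with 2 higher, 1 lower and 13 with overlapping bounds. By the same rule 8.14% of all genes on were higher and 12.9% lower. ple, tyrosine hydroxylase at the head of the catecholamine pathway, was at 19.6 in GFP+ and 6.68 in input cells, and yellow-e at 14.4 and 1.55. laccase2, the phenol oxidase of cuticle tanning, was lower at 13.0 and 22.6.

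Of 17 hormone-timed regulators 14 were on. Of these, 10 were lower in GFP+ cells, against 12.9% of all genes on, and none was higher, against 8.14%. Bounds overlapped for 3, and Hr4 had none that could be used. These calls were made without removing the length trend, which lies below 0 for long transcripts. The median log2 ratio of this list was -1.12, and -0.30 with the length trend removed. br, an early ecdysone target, was at 132 in GFP+ and 419 in input cells. ftz-f1, which is induced later in the prepupa as ecdysone declines, was below 1 in both groups, at 0.185 and 0.921.

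The labels were checked against marker genes by summed FPKM. The tendon markers sr, Tsp and Lrt were all higher in GFP+ cells (442 against 79.6), and the leg disc markers Dll, dac, hth and tsh were all lower (133 against 450). Of 8 myoblast markers 6 were lower (17.3 against 160), as were 3 of 5 tracheal markers (51.8 against 102). The other tracheal markers, kni (27.1 in GFP+ and 23.9 in input cells) and btl (0.0918 and 0.678), had overlapping bounds. Fat body markers moved the other way, at 27.4 in GFP+ and 0.333 in input cells, with 2 of 6 higher (Fbp1 and Lsp1gamma). None was at 0 in GFP+ cells, and Lsp1alpha was at 0 in input cells. The largest values in GFP+ cells, Fbp2 (11.4, bounds 0 to 22.8) and Lsp2 (9.62, bounds 0 to 19.4), had bounds that overlapped those of input cells. Lsp2 had a mean normalised count of only 21.4, against 206 for Fbp1 at a lower FPKM (3.78 in GFP+ cells). The level of Lsp2, and with it the fat body sum, is therefore uncertain. Of 3 neuronal markers 2 were higher in GFP+ cells, nSyb (13.7 against 2.29) and Syt1 (4.27 against 1.66), while elav stood at 10.1 and 18.6 with overlapping bounds, and the 3 summed to 28.1 and 22.5. The sums were, for hemocyte markers, 1.38 in GFP+ and 2.87 in input cells (eater and He at 0 in GFP+ cells) and, for salivary gland markers, 0.0620 and 1.38. Members below the level of 1 summed to 20.4 in GFP+ and 12.9 in input cells. Those listed above 0 in both groups had ratios above 1 in 36 cases and below 1 in 21. A further 13 were listed above 0 in GFP+ cells only and 20 in input cells only, so the direction was mixed. Members below the level had a median transcript of 908 bases. Genes on with transcripts of 750 to 1500 bases had a median log2 ratio of 0.29. The part of transcript length in these counts was not tested. The part of these other cells in the members' values was not tested.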

How the data were processed

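RNA of 3 GFP+ and 3 input sorts of leg disc cells was reverse transcribed with oligo-dT, and single-end reads were trimmed (Trimmomatic 0.32) and aligned to dm6 (Bowtie2 2.1.0) by the authors. The deposited FPKM, in the layout of Cufflinks 2.2.1, hold 1 value per group with confidence bounds of unstated level. The authors' second table gives the mean normalised count over all 6 libraries, a signal value of DESeq2 1.2.8. Its fold changes, standard errors, statistics and p-values are the authors' own comparison and were not used, except to see which p-value cells were empty. The counting program and annotation release are not given in the sources used here, and totals per library are unknown.

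Ratios are of group FPKM, with no pseudocount. Calls required bounds that did not overlap and that held the value itself, which left out 8 of 9207 genes on. Positions, lengths and exon overlaps came from Ensembl release 115 on the same assembly, in which 142 of 144 member IDs were found. Osi10 and Osi21 took their position from the deposited table. The length trend was a lowess fit (span 0.3, statsmodels 0.14.6, Python 3.11.15). The call rule and the trend were tested on simulated data. Every member on was named, with bounds for the 8 highest in each group and for those called. The members and lists were chosen with earlier results of these data known.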

Additional observations from a re-analysis of the deposited data

How the results depend on the processing

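No paired analysis was possible because the tables hold 1 value per group and none per library, so neither a replicate block nor leaving out a replicate could be run. The number of members on was 49 at a level of 0.5 FPKM, 9 at a level of 10, and 17 where the lower bound had to reach 1. Of all 17411 genes, 6399 reached the level of 10. Counts of all genes at the level of 0.5 and by the lower bound are not given here. By a ratio of 1.5 in place of the bounds 11 members were higher and 9 lower, and by a ratio of 2, 7 were higher and 9 lower. The shares of all genes by these ratios are not given here, so these counts cannot be set against all genes. The median log2 ratio of members on was -0.14 with the length trend removed, 0 over all members with a pseudocount of 0.1 FPKM, and -0.31 when each group was scaled to its summed FPKM (926347 in GFP+ and 689351 in input cells, a log2 shift of 0.43), a setting chosen after seeing the data. That scaling kept 1 member higher and gave 4 lower, and the shares of all genes under it are not given either. Of the 12 members given with their bounds by rule, all 12 kept their direction under both pseudocounts (0.1 and 1 FPKM). With the length trend removed, and under scaling, 7 of the 12 kept it. The other 5 (Cpr12A, TwdlE, Cpr49Ac, Cpr64Ac and Ccp84Ad) had overlapping bounds. The size of the difference in Cpr47Ee depended on the pseudocount, with a log2 ratio of -5.01 without one and -2.65 with 1 FPKM. Few reads, shared exons and near-identical copies limit the weak members most.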
